A study of Mus musculus with 6 samples.

Results

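The intercalated disc joins heart muscle cells end to end, and 10 of its junction genes were followed here: Dsp, Pkp2, Jup, Dsg2, Dsc2, Perp, Cdh2, Ctnna3, Gja1 and Gja5. They were chosen by name, as the genes of the desmosome, of the mixed adherens junction and of the gap junction, and the array's annotation found each of the 10 once among 20239 genes. The RNA came from heart ventricles of male mice of the strain background 129/Sv aged 3.5 weeks. In 3 mice both copies of Hspa4 were labelled as lost (Hspa4-/-), and 3 were labelled wild type (Hspa4+/+). Each RNA was read on a GeneChip Mouse Gene 1.0 ST array, with 1 array counted per mouse. The sources used here do not say how Hspa4 was disrupted. The comparison asks whether junction genes of the young ventricle differ when this Hsp110-type chaperone gene is lost.

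A desmosome is a spot weld that ties the intermediate filaments of neighbouring cells to each other through desmosomal cadherins, armadillo proteins and desmoplakin. In heart muscle it mixes with the adherens junction, which anchors actin through N-cadherin and catenins, to form the area composita. Gap junctions, built from connexins, sit beside them and pass the electrical impulse from cell to cell. Inherited defects of the desmosomal genes cause arrhythmogenic cardiomyopathy in people.

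The array labelled Hspa4-/- replicate 1 went against its label. Its Hspa4 log2 value was 9.33, whereas replicates 2 and 3 of the same label read 6.63 and 6.75 and wild type ran from 9.48 to 9.74. It also read 7.68 for Xist, which female cells express, against 5.51 to 5.69 on the other 5 arrays, although each mouse is labelled male. Differences of single genes are therefore given on all 6 arrays and on the 5 arrays left without it. On the leading principal component, which held 41.5% of the variance, that array scored −0.07 and wild-type replicate 2 scored 0.03. Both lay between replicates 2 and 3 of the Hspa4-/- label, at 0.46 and 0.55, and the other wild-type arrays, at −0.42 and −0.55. The cardiac identity of the tissue showed in 12 of 12 measured cardiomyocyte markers, such as Myh6 and Tnnt2, whose mean log2 values lay between 10.32 and 13.31. The values are log2 signals with no measure of background, the number of arrays limits the precision, and no probe set was compared in level with another. In whole ventricle, fewer cells of a type and less RNA per cell cannot be told apart.

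Differences are mean log2 values, arrays labelled Hspa4-/- minus wild type, from a limma model fitted on all 20239 genes. A gene is called where its adjusted p (Benjamini-Hochberg over all genes) is under 0.05. On 6 arrays 0 of the 10 junction genes and 0% of all genes were called by limma, while 4 of the 10 had an unadjusted p under 0.05, each higher, where 5.64% of all genes were higher and 5.53% lower at that p. Hspa4 itself was not called on 6 arrays (difference −2.01, SE 0.58; limma, adjusted p = 0.263), so a missing call there does not show that a gene is unchanged. It was called on 5 arrays (−2.89, SE 0.10; limma, adjusted p = 9.4e-06), but the array left out was judged by its Hspa4 value. On 5 arrays 1 of the 10 was called, Perp, which was higher. The background there was 0.44% of all genes called, made up of 0.232% higher and 0.208% lower. On those 5 arrays 5 of the 10 had an unadjusted p under 0.05, each higher, where 8.55% of all genes were higher and 6.36% lower. Counts at an unadjusted p in the gene lists that follow are to be read against these shares.

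The genes of the desmosomal plaque had higher mean values on the arrays labelled Hspa4-/- in both forms of the comparison, but none of the 3 was called in either. Dsp, which encodes desmoplakin, the protein that grips the intermediate filaments, had log2 values of 11.15, 11.24 and 11.38 on the arrays labelled Hspa4-/- replicates 1 to 3. The wild-type arrays read 11.02, 11.12 and 11.03. The groups did not overlap, although replicate 1 of the Hspa4-/- label stood only just above wild-type replicate 2. The difference was 0.20 on 6 arrays (SE 0.08; limma, adjusted p = 0.384) and 0.25 on 5 (SE 0.08; limma, adjusted p = 0.182), a fold of 1.19.

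Pkp2, which encodes plakophilin 2, the armadillo protein most often mutated in arrhythmogenic cardiomyopathy, read 9.20, 9.60 and 9.62 on the arrays labelled Hspa4-/-. The wild-type arrays read 9.34, 9.38 and 9.33. Replicate 1 of the Hspa4-/- label was the lowest of all 6 arrays, whereas replicates 2 and 3 of that label were the highest. The difference was 0.12 (SE 0.11; limma, adjusted p = 0.750) on 6 arrays and 0.26 (SE 0.07; limma, adjusted p = 0.125) on 5, a fold of 1.20.

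Jup, which encodes plakoglobin, the armadillo protein shared by desmosomes and adherens junctions, read 9.76, 9.79 and 9.93 on the arrays labelled Hspa4-/-, against 9.19, 9.78 and 9.27 on the wild-type arrays. Wild-type replicate 2 lay with the arrays labelled Hspa4-/-, above replicate 1 and just below replicate 2 of that label, and the other wild-type arrays were well below. The wild-type values averaged 9.41 ± 0.32 (SD, n = 3), and the spread of Jup within groups, an SD of 0.23, was larger than that of 97.3% of genes. The difference was 0.41 (SE 0.14; limma, adjusted p = 0.305) on 6 arrays and 0.45 (SE 0.16; limma, adjusted p = 0.239) on 5, a fold of 1.36. Without wild-type replicate 2 it was 0.60 on 6 arrays (limma, adjusted p = 0.0382) and 0.63 on 5 (limma, adjusted p = 0.0109), so that 1 array decided whether Jup was called. Leaving out that array also raised the calls over all genes, from 0 to 112 on 6 arrays and from 89 to 875 on 5, so the change was not particular to Jup.

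**Figure D1:**
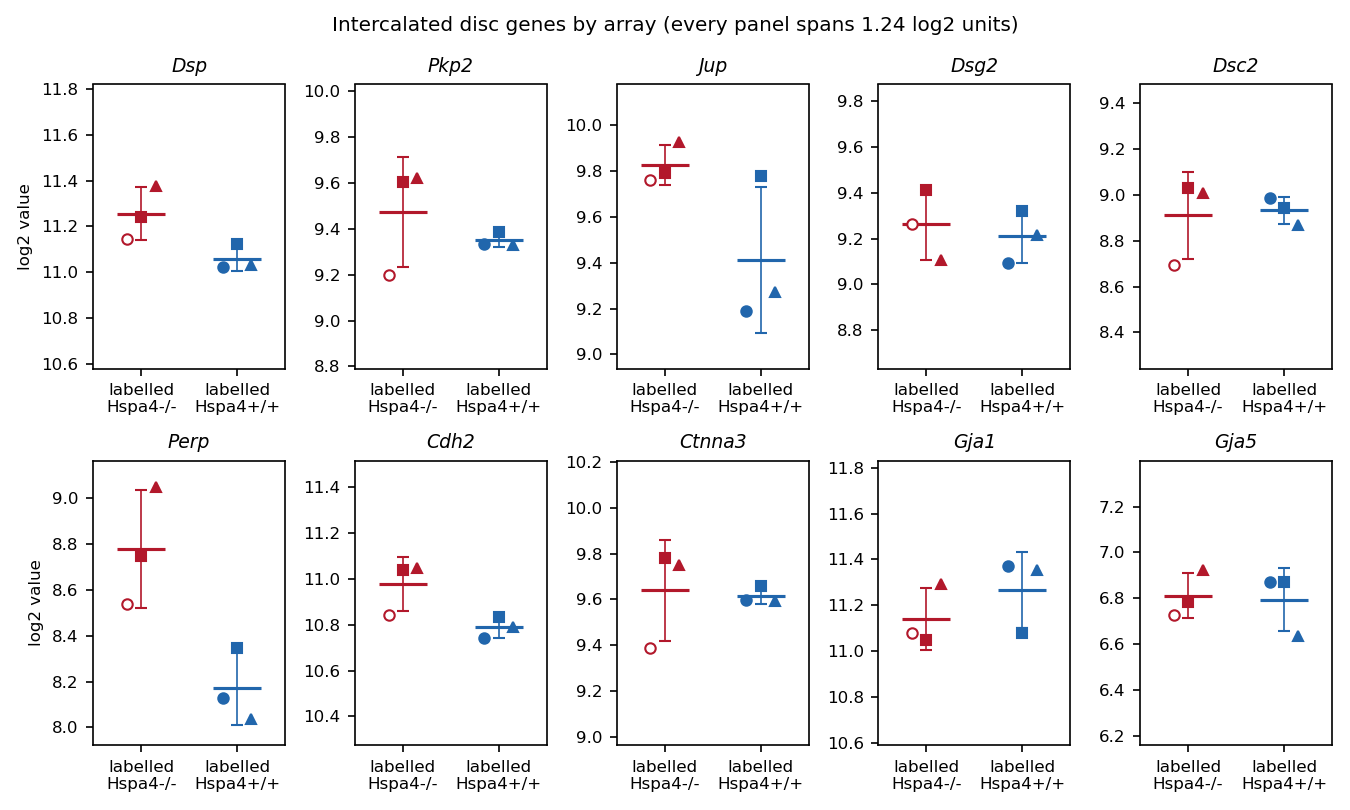
Log2 value of each junction gene on each array, with the arrays labelled Hspa4-/- in red and those labelled Hspa4+/+ in blue; circles, squares and triangles are replicates 1, 2 and 3, the open circle is replicate 1 of the Hspa4-/- label, with its Hspa4 near wild type, and bars are the mean and SD of 3 arrays. Perp values run from 8.54 to 9.05 on the arrays labelled Hspa4-/- and from 8.04 to 8.35 in wild type, without overlap, while for Pkp2, Dsc2 and Ctnna3 the open circle lies below every other array.

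The desmosomal cadherins, the adhesive proteins that bridge the gap between cells, had the differences nearest to 0 among the 6 desmosomal genes followed here. Dsg2, which encodes desmoglein 2, read 9.26, 9.41 and 9.11 on the arrays labelled Hspa4-/- and 9.09, 9.32 and 9.22 on the wild-type arrays. The values of the groups interleaved. Its difference was 0.05 in both forms (SE 0.09 on 6 arrays and 0.11 on 5; limma, adjusted p = 0.898 and 0.864), with a 95% interval from −0.19 to 0.29 on 5 arrays.

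Dsc2, which encodes desmocollin 2, read 8.69, 9.03 and 9.01 on the arrays labelled Hspa4-/-, against 8.99, 8.94 and 8.87 on the wild-type arrays. Replicate 1 of the label was the lowest array and replicates 2 and 3 the highest, as for Pkp2. The difference was −0.02 (SE 0.10; limma, adjusted p = 0.964) on 6 arrays and 0.09 (SE 0.07; limma, adjusted p = 0.615) on 5. The interval on 5 arrays ran from −0.07 to 0.25. The other desmosomal genes on the array include skin-type cadherins such as Dsg3 and Dsc3, plakophilins 1, 3 and 4, periplakin and envoplakin. Of 12 measured, 0 were called in either form by limma, 0 had an unadjusted p under 0.05 in either, and the median difference was 0.01 on 6 arrays and −0.03 on 5. Apart from Pkp4, at 9.34 in wild type, their wild-type means were at most 6.66, where array medians lay between 6.42 and 6.48. With no measure of background, these values do not show whether the genes other than Pkp4 were expressed. The smallest p values among them on 5 arrays were those of Cdsn, the corneodesmosin gene, with a difference of 0.09 (0.07 on 6 arrays), and Dsg4, a hair-follicle desmoglein gene, with −0.09 (−0.08 on 6).

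Cdh2 and Ctnna3, which serve the adherens side of the area composita, had a positive difference in both forms. Cdh2 encodes N-cadherin, the classical cadherin of heart muscle, and read 10.84, 11.04 and 11.05 on the arrays labelled Hspa4-/-, against 10.74, 10.83 and 10.79 on the wild-type arrays. The groups did not overlap, with replicate 1 of the label only just above wild-type replicate 2. The difference was 0.19 (SE 0.08; limma, adjusted p = 0.394) on 6 arrays and 0.26 (SE 0.07; limma, adjusted p = 0.142) on 5, a fold of 1.20. Among the 10 genes the profile of Cdh2 over the arrays was nearest to that of Dsp: after centring each gene on its own mean, their values differed by a root mean square of 0.04 over 6 arrays.

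Ctnna3, which encodes alpha-T-catenin, a catenin that binds plakophilin 2, read 9.39, 9.78 and 9.75 on the arrays labelled Hspa4-/- and 9.60, 9.66 and 9.59 on the wild-type arrays. Again replicate 1 of the label was the lowest array and replicates 2 and 3 were the highest. The difference was 0.02 (SE 0.10; limma, adjusted p = 0.966) on 6 arrays and 0.15 (SE 0.07; limma, adjusted p = 0.347) on 5. The nearest profile among the 10 was that of Dsc2, with a root mean square difference of 0.05, and for Pkp2 it was that of Ctnna3, also 0.05.

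The connexin genes showed no called difference in either form. Gja1 encodes connexin 43, the main gap junction protein of working ventricular muscle, and was the only gene of the 10 with a lower mean in both forms. It read 11.08, 11.05 and 11.29 on the arrays labelled Hspa4-/- and 11.37, 11.08 and 11.35 on the wild-type arrays. Replicate 3 of the label lay with wild-type replicates 1 and 3, and wild-type replicate 2 lay with replicates 1 and 2 of the label, so the groups overlapped. The difference was −0.13 (SE 0.10; limma, adjusted p = 0.715) on 6 arrays and −0.10 (SE 0.11; limma, adjusted p = 0.740) on 5, with intervals from −0.35 to 0.10 and from −0.35 to 0.16. As folds, the 5-array interval runs from 0.784 to 1.12.

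Gja5 encodes connexin 40, the connexin of the atria, the fast conduction system and arterial endothelium. It read 6.73, 6.78 and 6.92 on the arrays labelled Hspa4-/-, against 6.87, 6.87 and 6.64 on the wild-type arrays. The groups overlapped, with replicate 3 of the Hspa4-/- label the highest array and wild-type replicate 3 the lowest. The difference was 0.02 (SE 0.09; limma, adjusted p = 0.970) on 6 arrays and 0.06 (SE 0.09; limma, adjusted p = 0.815) on 5. Its wild-type mean of 6.79 stood near the array medians of 6.42 to 6.48, and how far it lay above background is unknown. Over the same arrays the summed linear level of 13 conduction markers was 1603, 1578 and 1639 on the arrays labelled Hspa4-/- and 1486, 1529 and 1496 in wild type. For 10 arterial endothelial markers it was 1281, 1294 and 1339 against 1189, 1251 and 1148 in wild type. Both sums were higher without overlap, and 0 members of either list were called. The conduction list includes the connexin genes Gjc1 and Gjd3, and the arterial list includes Gja4, so neither is separate from the connexins. For conduction markers the median difference was 0.07 on 6 arrays and 0.03 on 5, with 9 and 8 of 13 positive. For arterial markers it was 0.09 and 0.08, with 10 of 10 positive in both. The part of these markers in the Gja5 values was not tested.

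Other connexin and pannexin genes were measured for 17 members, of which 0 were called by limma in either form. At an unadjusted p under 0.05, 2 were upward and 1 downward on 6 arrays, and on 5 arrays 1 was upward and 1 downward. The pair past that p in both forms were Gjc1, which encodes connexin 45 of the conduction system, and Gja3, which encodes connexin 46. Gjc1 read 7.68, 7.77 and 7.99 on the arrays labelled Hspa4-/- against 7.60, 7.66 and 7.56 in wild type, a difference of 0.21 on 6 arrays (SE 0.09; limma, adjusted p = 0.418) and 0.27 on 5 (SE 0.09; limma, adjusted p = 0.195). Gja3 read 7.70, 7.72 and 7.85 against 8.04, 7.88 and 8.06 in wild type, a difference of −0.24 on 6 arrays (SE 0.08; limma, adjusted p = 0.289) and −0.21 on 5 (SE 0.08; limma, adjusted p = 0.282). The other upward gene on 6 arrays was Gjd3, a further connexin gene, named after its values were seen, with 7.29, 7.09 and 6.94 on the arrays labelled Hspa4-/- against 6.77, 6.90 and 6.90 in wild type. It differed by 0.25 on 6 arrays (SE 0.09; limma, adjusted p = 0.356) and 0.16 on 5 (SE 0.08; limma, adjusted p = 0.401). The groups did not overlap for any of these 3 genes.

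The promoters of Dsp, Jup and Gja1 are shown to set plaque genes with higher means beside the connexin gene with a lower mean. RefSeq promoter sequences on GRCm38.p6, from 250 bases before to 50 after the start site, were at hand for 5 of the 10 genes: Dsp, Jup, Gja1, Gja5 and Ctnna3. Each is printed 5′ to 3′ on the strand of its gene, and capitals mark the GC box GGGCGG and the E-box CANNTG on either strand.
Dsp, chr13:38151044-38151343 (+ strand): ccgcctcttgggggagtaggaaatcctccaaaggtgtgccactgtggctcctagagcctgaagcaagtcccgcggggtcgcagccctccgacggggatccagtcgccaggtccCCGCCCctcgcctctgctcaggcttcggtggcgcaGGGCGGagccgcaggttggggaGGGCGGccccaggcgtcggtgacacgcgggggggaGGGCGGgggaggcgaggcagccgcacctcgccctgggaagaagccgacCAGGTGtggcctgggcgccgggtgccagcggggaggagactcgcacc
Jup, chr11:100397741-100398040 (- strand): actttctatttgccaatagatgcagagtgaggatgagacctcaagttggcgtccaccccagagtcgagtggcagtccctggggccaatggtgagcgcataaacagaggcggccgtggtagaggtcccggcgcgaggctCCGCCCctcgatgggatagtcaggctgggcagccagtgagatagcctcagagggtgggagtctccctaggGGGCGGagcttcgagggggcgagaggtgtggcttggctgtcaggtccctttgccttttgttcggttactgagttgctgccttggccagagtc
Gja1, chr10:56377050-56377349 (+ strand): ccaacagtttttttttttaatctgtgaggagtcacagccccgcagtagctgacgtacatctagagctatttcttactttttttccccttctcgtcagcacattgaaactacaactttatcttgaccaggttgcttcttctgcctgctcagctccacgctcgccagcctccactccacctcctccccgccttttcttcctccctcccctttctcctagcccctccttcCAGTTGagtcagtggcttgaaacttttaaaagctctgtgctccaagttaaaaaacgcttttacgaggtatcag

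The Dsp window holds 4 GC boxes and 1 E-box, the Jup window 2 GC boxes and no E-box, and the Gja1 window 1 E-box and no GC box. Of 32851 promoter windows of the same length in the table, 35.7% hold a GC box and 72.3% an E-box. GC content was 73% for Dsp, 60.7% for Jup and 47.7% for Gja1, beside a median of 52.7% over all windows. In the windows not printed it was 55.7% for Gja5 and 67%, 46% and 47.3% for the 3 start sites of Ctnna3. The heat shock element core GAANNTTC, which 7.86% of windows hold, the TEAD motif core GGAATG (14.7%), the TATA box TATAAA (13.6%) and the cyclic AMP element TGACGTCA (1.79%) had no match in these 3 windows. These matches describe the letters only.

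Perp had the largest difference of the 10 genes in both forms and was the only one called. It encodes a tetraspan membrane protein that mouse skin needs for stable desmosomes, and it was first known as a target of the tumour suppressor p53. Its log2 values were 8.54, 8.75 and 9.05 on the arrays labelled Hspa4-/-, against 8.13, 8.35 and 8.04 on the wild-type arrays. Every array labelled Hspa4-/-, replicate 1 with its near wild-type Hspa4 included, lay above every wild-type array. That array was 0.37 above the wild-type mean, and replicates 2 and 3 were 0.58 and 0.88 above it. On 5 arrays Perp rose 1.66-fold (log2 difference 0.73, SE 0.12; limma, adjusted p = 0.0442), with an interval from 1.38-fold to 1.99-fold. On 6 arrays the difference was 0.61 (SE 0.13; limma, adjusted p = 0.210), with the 81st smallest p of all genes in each form. The call was lost without replicate 2 or 3 of the Hspa4-/- label (limma, adjusted p = 0.0572 and 0.209), without wild-type replicate 1 or 3 (0.204 and 0.240) and with array medians subtracted (0.0801). The difference stayed between 0.58 and 0.88 in these and all other settings tried on 5 arrays. That Perp passes on 5 arrays was known when the 10 genes were picked.

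**Figure D2:**
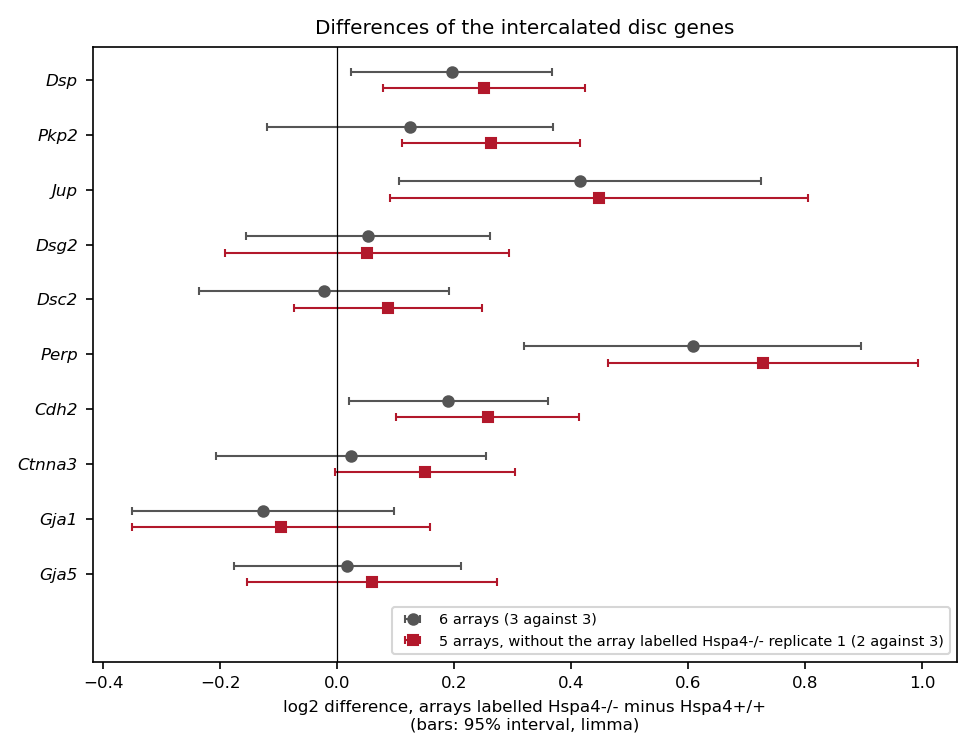
Log2 difference of each junction gene, arrays labelled Hspa4-/- minus Hspa4+/+, with its 95% interval from limma, on 6 arrays (grey circles) and on the 5 arrays without the array labelled Hspa4-/- replicate 1 (red squares). Perp lies farthest from 0, at 0.61 on 6 arrays and 0.73 on 5, and Gja1 is the only gene below 0 in both forms.

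Of 7 measured genes of the PMP22 and tetraspan-like family, to which Perp belongs, 0 were called in either form by limma. On 5 arrays 1 had an unadjusted p under 0.05 upward and 3 downward, where 8.55% and 6.36% of all genes did so. The difference of Tmem47 was −0.25 on 6 arrays (SE 0.08; limma, adjusted p = 0.291) and −0.26 on 5 (SE 0.09; limma, adjusted p = 0.239). For Emp3 it was −0.21 on 6 arrays (SE 0.10; limma, adjusted p = 0.460) and −0.28 on 5 (SE 0.10; limma, adjusted p = 0.243). Of 23 measured p53 pathway genes 0 were called by limma in either form, and on 5 arrays 1 had an unadjusted p under 0.05 in each direction, with a median difference of −0.01. Plk2, a kinase gene, had a difference of 0.25 on 6 arrays (SE 0.18; limma, adjusted p = 0.683) and 0.50 on 5 (SE 0.09; limma, adjusted p = 0.0623). Replicate 1 of the Hspa4-/- label stood at −0.25 from the wild-type mean of Plk2. Ccng1, a cyclin gene, differed by −0.15 on 6 arrays (SE 0.07; limma, adjusted p = 0.474) and −0.20 on 5 (SE 0.07; limma, adjusted p = 0.240).

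The 5 named genes whose centred profile over the 6 arrays was nearest to that of Perp were Myh7, Igfbp3, Extl3, Qsox1 and Erbb2. Since they were picked for this likeness on the same arrays, differences of like direction and size follow from the choice and are no separate result. Myh7, which encodes the beta-myosin heavy chain, was nearest, with a root mean square difference of 0.04. It read 8.25, 8.45 and 8.76 on the arrays labelled Hspa4-/-, against 7.92, 8.10 and 7.70 on the wild-type arrays, so its arrays stood in the same order from highest to lowest as those of Perp. Igfbp3, which encodes a binding protein of insulin-like growth factors, Extl3, a glycosyltransferase gene, Qsox1, a sulfhydryl oxidase gene, and Erbb2, a receptor tyrosine kinase gene, stood at 0.08 each. On 5 arrays Igfbp3 was called (log2 difference 0.81, SE 0.12; limma, adjusted p = 0.0378) and the other 4 were not. On 6 arrays its difference was 0.65 (SE 0.15; limma, adjusted p = 0.221). The 5-array call was lost on leaving out any of the 5 arrays but wild-type replicate 2 (limma, adjusted p between 0.0845 and 0.233) and with array medians subtracted (0.0672). Among the 10 junction genes the nearest to Perp was Jup, with a root mean square difference of 0.18, and the farthest was Gja1, with 0.42.

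Over the 10 genes, 8 had a positive and 2 a negative difference on 6 arrays, and 9 a positive and 1 a negative difference on 5. Over all genes 45.8% were positive on 6 arrays and 43.3% on 5. The median difference of the 10 was 0.09 on 6 arrays and 0.20 on 5, and over all genes it was −0.01 and −0.02. With the lowest 50% of genes by mean value left out, the median over the remaining genes was 0.02 and 0.04. In wild type the 10 averaged from 6.79 (Gja5) to 11.27 (Gja1), above the array medians of 6.42 to 6.48, though Gja5 only just. All genes, dim ones included, are therefore not a background of like level. On 6 arrays the groups did not overlap for 3 of the 10, Dsp, Cdh2 and Perp, each higher, where 6.08% of all genes were higher and 9.07% lower without overlap. On 5 arrays 7 of the 10 were higher without overlap, all but Dsg2, Gja1 and Gja5, and 0 were lower, where 14.4% of all genes were higher and 18.9% lower. Both forms share 5 arrays. Since the genes were picked with earlier results known, these counts describe them and test nothing.

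Replicate 1 of the Hspa4-/- label was above the wild-type mean for 5 of the 10 junction genes. It stood above every wild-type array for 3 of the 10, Dsp, Cdh2 and Perp, and below every wild-type array for another 3, Pkp2, Dsc2 and Ctnna3. Over all genes it stood above every wild-type array in 26.5% and below in 27.8%, so the counts for the junction genes are near the background and are no result about them. For Pkp2 it was −0.15 from the wild-type mean, for Dsc2 −0.24 and for Ctnna3 −0.23, while replicates 2 and 3 were between 0.08 and 0.27 above that mean for these 3 genes. With 1 array, none of these values has a test.

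**Figure D3:**
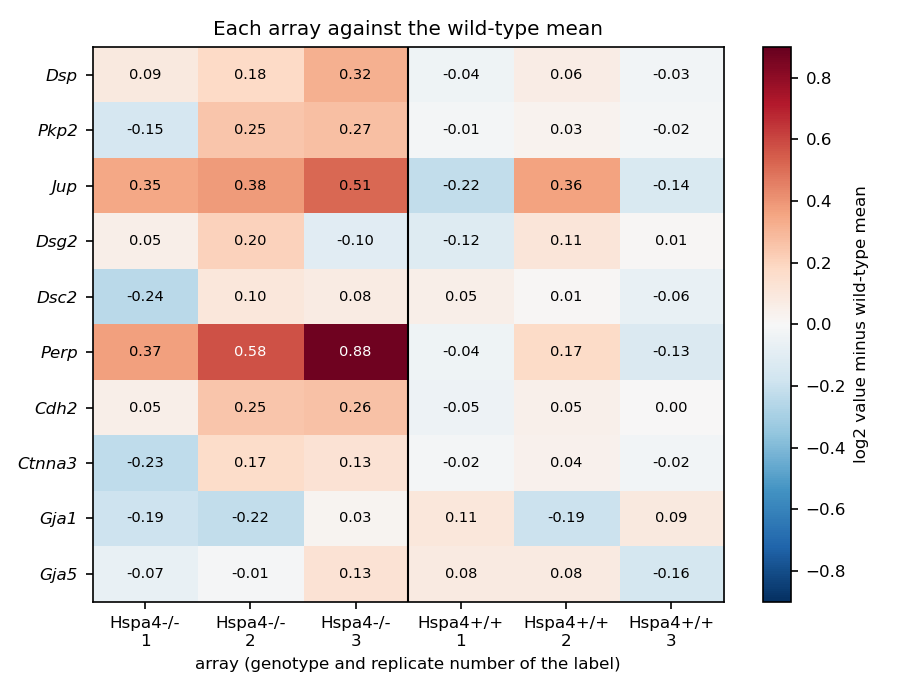
Log2 value of each junction gene on each array minus the mean of the 3 wild-type arrays, with higher values in red and lower in blue. Perp is above the wild-type mean by 0.37, 0.58 and 0.88 on replicates 1, 2 and 3 of the Hspa4-/- label, while Pkp2, Dsc2 and Ctnna3 are below it on replicate 1 and above it on replicates 2 and 3.

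Among other genes of the adherens junction and area composita, 1 of 28 was called on 5 arrays and 0 on 6, and 7 had an unadjusted p under 0.05 upward and 1 downward there. The called gene was Bves, which encodes a Popeye-domain protein of the muscle cell membrane found at the disc. It read 9.63, 10.16 and 10.30 on the arrays labelled Hspa4-/-, against 9.61, 9.66 and 9.63 on the wild-type arrays. Replicates 2 and 3 of the label stood apart, and replicate 1 lay within the wild-type values. On 5 arrays Bves rose 1.51-fold (log2 difference 0.60, SE 0.07; limma, adjusted p = 0.0225), and on 6 arrays it differed by 0.40 (SE 0.15; limma, adjusted p = 0.350). Without replicate 2 or 3 of the Hspa4-/- label, or wild-type replicate 1 or 3, the 5-array call was lost (limma, adjusted p between 0.0540 and 0.156). The list's median difference was 0.07 on 6 arrays and 0.10 on 5.

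Of 12 measured channel and scaffold genes that work at or near the disc, 0 were called on 6 arrays and 1 on 5 by limma. This was Kcnd2, which encodes a channel subunit of the transient outward potassium current, with 9.29, 9.11 and 9.04 on the arrays labelled Hspa4-/- and 9.71, 9.58 and 9.74 in wild type. The groups did not overlap, and Kcnd2 fell by 0.60 on 5 arrays (SE 0.08; limma, adjusted p = 0.0237). Its difference on 6 arrays was −0.53 (SE 0.08; limma, adjusted p = 0.210). Leaving out the same 4 arrays as for Bves, each in turn, again ended the call (limma, adjusted p between 0.0796 and 0.167), and 5 members were upward and 3 downward at an unadjusted p under 0.05 on 5 arrays, against 8.55% and 6.36% of all genes.

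Intermediate filament and linker genes, to which desmosomes couple, had 0 of 10 called in either form by limma, and 3 with an unadjusted p under 0.05 upward and 1 downward in each. Des, which encodes desmin, the muscle filament that desmoplakin holds, read 10.02, 9.94 and 10.18 on the arrays labelled Hspa4-/- against 9.46, 9.87 and 9.43 in wild type. As for Jup, wild-type replicate 2 was the highest of its group, here just below the arrays labelled Hspa4-/-, and without it Des was called (limma, adjusted p = 0.0445 on 6 arrays and 0.0157 on 5). Without that array 112 of all genes were called on 6 arrays and 875 on 5. With all arrays its difference was 0.46 (SE 0.12; limma, adjusted p = 0.245) on 6 arrays and 0.47 (SE 0.14; limma, adjusted p = 0.169) on 5. Vim, which encodes vimentin of non-muscle cells, differed by 0.33 on 6 arrays (SE 0.12; limma, adjusted p = 0.355) and 0.48 on 5 (SE 0.08; limma, adjusted p = 0.0588).

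Kinases, ubiquitin ligases and microtubule proteins that act on junction proteins had 0 of 17 called in either form by limma, with 6 upward and 3 downward at an unadjusted p under 0.05 on 5 arrays, against 8.55% and 6.36% of all genes. The casein kinase gene Csnk1e differed by 0.30 on 6 arrays (SE 0.08; limma, adjusted p = 0.245) and 0.37 on 5 (SE 0.08; limma, adjusted p = 0.0780). For the tubulin deacetylase gene Hdac6 the difference was 0.23 on 6 arrays (SE 0.08; limma, adjusted p = 0.314) and 0.30 on 5 (SE 0.07; limma, adjusted p = 0.105). Of 18 Wnt pathway and target genes, of interest because plakoglobin is a relative of beta-catenin, 0 were called by limma in either form, and 5 were upward and 0 downward at an unadjusted p under 0.05 on 5 arrays. The list as a whole did not lean upward on 5 arrays, with 9 of 18 positive and a median difference of −0.004. On 6 arrays 11 were positive, with a median of 0.03. Myc, a transcription factor gene, differed by 0.47 on 6 arrays (SE 0.20; limma, adjusted p = 0.427) and 0.73 on 5 (SE 0.12; limma, adjusted p = 0.0538), with replicate 1 of the Hspa4-/- label at −0.05 from the wild-type mean. Sfrp2, which encodes a secreted Wnt modulator, differed by 0.35 on 6 arrays (SE 0.11; limma, adjusted p = 0.291) and 0.41 on 5 (SE 0.12; limma, adjusted p = 0.181).

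Markers of cell types that carry these junctions moved in part with the groups. The summed linear level of the 12 cardiomyocyte markers was 60608, 62354 and 64787 on the arrays labelled Hspa4-/- and 59107, 57456 and 56441 in wild type. It was higher without overlap; 12 of 12 had a positive difference in both forms and 0 were called by limma, with 6 at an unadjusted p under 0.05. Its part in the higher values of Dsp, Cdh2, Jup and Perp was not tested. Markers of epithelia, whose desmosomes also hold Dsp, Jup and Perp, summed to 717, 677 and 650 on the arrays labelled Hspa4-/- and to 689, 667 and 737 in wild type, and 0 of 11 were called by limma or had an unadjusted p under 0.05. Their mean log2 values lay between 5.61 and 6.49, where array medians lay between 6.42 and 6.48, and the table holds no zeros.

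Mesothelial markers, from the epithelial sheet that covers the heart, summed to 913, 769 and 796 on the arrays labelled Hspa4-/-, against 1000, 904 and 1000 in wild type. The sums overlapped, since replicate 1 of the Hspa4-/- label stood above wild-type replicate 2. On 5 arrays 0 of these 11 markers had a positive difference, and their part in the Perp values was not tested. Their mean log2 values lay between 5.66 and 6.88, near the array medians of 6.42 to 6.48, and how far they stood above background is unknown. The uroplakin genes Upk3b and Upk1b, named here after their values were seen, fell 1.72-fold and 1.87-fold on 5 arrays (limma, adjusted p = 0.0173 and 0.0330). On 6 arrays their log2 differences were −0.56 and −0.73 (limma, adjusted p = 0.269 and 0.210). Both calls were lost on leaving out any of the 5 arrays but wild-type replicate 2 (limma, adjusted p between 0.0648 and 0.228), and that of Upk1b also with array medians subtracted (0.0568).

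Other marker lists were measured beside them. Atrial markers summed to 2095, 2778 and 4114 on the arrays labelled Hspa4-/- and to 1685, 2001 and 1654 in wild type. The median difference of the list was only 0.03 on 6 arrays and 0.04 on 5, with 7 of 10 positive in both. The sums therefore do not describe a typical member. On 5 arrays 2 of 10 were called by limma: Nppa, the gene of atrial natriuretic peptide, was higher (log2 difference 2.32; limma, adjusted p = 0.0127) and the potassium channel gene Kcnj3 lower (0.0310), both named after their values were seen. On 6 arrays the difference was 1.80 for Nppa and −0.38 for Kcnj3 (limma, adjusted p = 0.213 and 0.323). Without wild-type replicate 1 or 3 neither was called, and without replicate 2 or 3 of the Hspa4-/- label Kcnj3 was not (limma, adjusted p between 0.0796 and 0.182); with array medians subtracted the Kcnj3 call was lost too (0.0549). Sums for fibroblast markers ran from 5237 to 6066 on the arrays labelled Hspa4-/- and from 5416 to 5666 in wild type. Endothelial markers ran from 4158 to 4799 on the arrays labelled Hspa4-/- and from 4111 to 4303 in wild type, and smooth muscle and pericyte markers from 7484 to 9182 and, in wild type, from 7522 to 7978. The smooth muscle and pericyte list includes Des, and the endothelial list includes Cdh5 of the adherens list, so neither is separate from the gene lists above. Macrophage markers were lower without overlap, from 1582 to 1661 against 1706 to 1784 in wild type. The skeletal muscle sum was higher without overlap, from 1975 to 2042 against 1761 to 1854 in wild type, but it is carried by its brightest member Ckm, the muscle creatine kinase gene, which heart muscle also expresses. Of the 10 skeletal muscle markers, 4 had a positive difference on 6 arrays and 2 on 5, with medians of −0.02 and −0.04, whereas Ckm differed by 0.24 and 0.26 (limma, adjusted p = 0.264 and 0.186). In these 5 lists 0 members were called by limma in either form, and at an unadjusted p under 0.05 on 5 arrays each had from 1 to 5 members upward and from 0 to 3 downward.

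**Figure D4:**
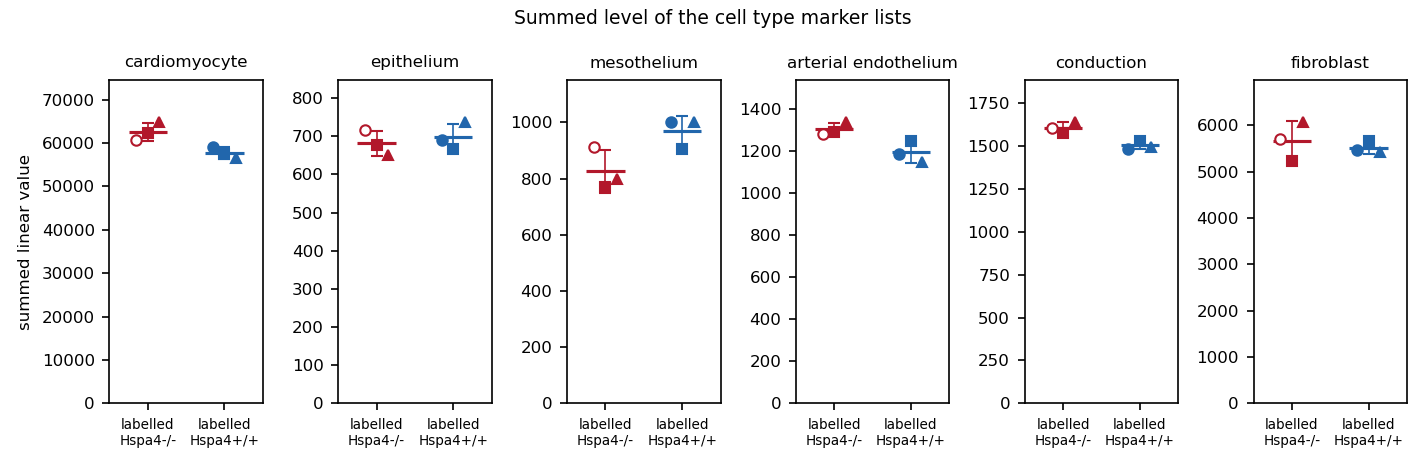
Summed linear value of each cell type marker list on each array, with axes from 0; red are the arrays labelled Hspa4-/- and blue those labelled Hspa4+/+, circles, squares and triangles are replicates 1, 2 and 3, the open circle is replicate 1 of the Hspa4-/- label, with its Hspa4 near wild type, and bars are the mean and SD of 3 arrays. The cardiomyocyte sum is higher on every array labelled Hspa4-/- (60608 to 64787) than in wild type (56441 to 59107), and the epithelial sums overlap.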

How the data were processed

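Per the submitters' processing notes, the authors made the values with R 2.13.0 and the affy package; no source used here names the background correction, normalisation or summary method. The deposited values are log2, 1 for each probe set and array, and were kept as deposited. Probe sets are numbered by gene, so isoforms cannot be separated. Of 21225 probe sets, 20239 had 1 symbol in the annotation, 0 several and 986 none; all 20239 gene numbers were in RefSeq's GRCm38.p6 table. Array medians lay between 6.42 and 6.48 and SDs between 1.19 and 1.27, and depth over background is unknown. Arrays shared 11 to 30 identical values in pairs.

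Groups came from the labels. A model with the 2 groups as its term was fitted in limma 3.58.1 (R 4.3.3) and tested on simulated data. The junction genes and all gene lists were chosen with earlier results of these data known. Named genes are the 10, Hspa4, called members of each pathway list (else up to 2 with the smallest p on 5 arrays) and the 5 nearest to Perp. Upk3b, Upk1b, Nppa, Kcnj3, Gjd3 and Ckm were added after their values were seen. Alternatives were low-value filters, normalisations, an intensity trend, array weights, the replicate block and leaving out each array. List members without a named probe set were not analysed here.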

Additional observations from a re-analysis of the deposited data

How the results depend on the processing

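Of 250 recomputed differences of the 10 genes, 225 kept their direction and side of the threshold, 5 lost the call (all Perp on 5 arrays), 4 gained it (Perp and Jup) and 16 changed sign. The low-value filters, the intensity trend and, on 6 arrays, the replicate block leave the difference itself unchanged, so no sign could change there. On 5 arrays the replicate block gives the same difference as leaving out wild-type replicate 1. These settings are therefore not all separate checks of direction. Dsp, Pkp2, Jup, Cdh2 and Perp kept their sign in every setting of both forms. On 6 arrays, leaving out single arrays moved Pkp2 between 0.050 (without replicate 3 of the Hspa4-/- label; 0.060 without replicate 2) and 0.26, and Gja1 between −0.22 and −0.075. The sign changes were of uncalled differences. With array weights Dsc2 on 6 arrays was 0.031, with quantile normalisation Gja5 on 6 arrays was −0.0047, and with the replicate block Dsg2 on 5 arrays was −0.0078. Leaving out single arrays took Dsg2 from −0.024 to 0.13, Dsc2 from −0.083 to 0.087, Gja5 from −0.062 to 0.059 and Ctnna3 from −0.049 to 0.15 on 6 arrays. On 5 arrays it took Dsg2 from −0.10 to 0.20, Gja1 from −0.22 to 0.027 and Gja5 from −0.020 to 0.13. Junction genes called on 6 arrays were 1 with array weights and 0 to 1 on leaving out single arrays (1 without replicate 1 of the Hspa4-/- label, and 1 without wild-type replicate 2); on 5 arrays they were 0 with array medians subtracted and 0 to 2 on leaving out single arrays (2 without wild-type replicate 2, 0 without any of the others). Counts over all genes on 6 arrays were 2 with either low-value filter, 115 with array weights, 2 with the replicate block and 0 to 112 on leaving out single arrays; on 5 arrays they were 156 and 167 with the lowest 25% and 50% left out, 36 with array medians subtracted, 321 with array weights, 134 with the replicate block and 2 to 875 on leaving out single arrays. The cause was not tested. Of 695 recomputed differences of the other named genes, Hspa4 and those named after their values were seen included, 614 kept their direction and side of the threshold, 29 lost the call, 52 gained it and 0 changed sign. The settings that leave a difference unchanged are counted among these too. Deviations from the group means correlated between arrays of the same replicate number at r = −0.17, 0.09 and −0.25 for replicates 1 to 3. With 3 arrays per group these deviations are tied to each other, and other array pairs were not set beside them. The r values therefore cannot decide whether arrays were paired. The sources used here state no pairing, so the numbers were not taken as pairs.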
